A study of Mus musculus with 18 samples.

Results

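The genes described here encode the proteasome, its activators and its assembly factors. They were the rows of the 2 deposited count tables that carry a protein-coding biotype and a symbol beginning with Psm, then a letter from a to g, then a number. Of 46078 genes in the tables, 54 had such a symbol and 47 met both conditions; 4 others were pseudogenes. Psmb6, Psme1 and Psmd5 carry another biotype in the tables although GENCODE lists each of them as protein coding. Their values are given beside those of their partners, and they are not counted among the 47. By role the 47 comprised 8 alpha-ring subunits, 4 structural beta subunits, 2 constitutive catalytic subunits, 3 immunosubunits, the thymic subunit Psmb11, 6 cap ATPases and 11 other cap subunits. The remainder were Psme2 and its retrocopy Psme2b, 2 further activators, the inhibitor Psmf1, 6 assembly factors and Psmc3ip, a meiotic recombination factor that shares only the name.

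The proteasome degrades proteins that have been tagged with ubiquitin. Its barrel-shaped core is built of alpha rings, which gate the entry, around beta rings, which hold the protease sites, and a regulatory cap recognises, unfolds and feeds in the substrate. The constitutive core carries the catalytic subunits encoded by Psmb5, Psmb6 and Psmb7. Interferon-gamma induces alternative subunits that replace them one for one in newly built cores: Psmb8 takes the position of Psmb5, Psmb9 that of Psmb6 and Psmb10 that of Psmb7. The resulting immunoproteasome, which lymphocytes express at rest, changes the cleavage preference towards peptides that fit MHC class I molecules. The interferon-inducible activator PA28, encoded by Psme1 and Psme2, can replace the cap at the end of the barrel. The levels of the constitutive subunits are set together by the transcription factor encoded by Nfe2l1, which acts at antioxidant response elements.

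The samples were bulk RNA-seq libraries of Tregs, regulatory T cells, a CD4 lineage defined by the transcription factor Foxp3 that holds back immune responses. All cells came from 10-week-old male mice carrying the Foxp3(DTR/GFP) allele, a Foxp3-linked diphtheria toxin receptor and green fluorescent protein, and no group lacked it. Each injured mouse received 1 injury: a defect in the cranial bone, volumetric loss of the quadriceps muscle, full-thickness punch wounds of the skin, or myocardial infarction by ligation of the left coronary artery. Tregs were sorted from the injured tissue on day 7, and each of the 3 libraries per tissue pooled the cells of 3 mice. The comparison group was 6 libraries of Tregs from the spleens of healthy, uninjured mice of the same strain, age and sex. How many mice stand behind a spleen library is not given in the sources used here, so p-values measure the spread between these libraries. Tregs of the 4 tissues without injury, and Tregs from the spleens of injured mice, were not analysed here: tissue of origin and injury cannot be told apart. All comparisons with spleen used the same 6 spleen libraries and are therefore not independent of one another.

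Libraries held 5970346 to 22635760 counts assigned to genes. The column names carry 1 of 2 styles, Endo (spleen 1 to 3, all skin, heart 1) or Tregs (spleen 4 to 6, all bone and muscle, heart 2 and 3). Every edgeR test below includes the style as a term, apart from some alternatives that leave it out or replace it. Columns of 2 bone libraries are not named in any sample label, so they are called bone b and bone c. Treg identity genes summed to 3909 to 4575 CPM (counts scaled to the size of the library) in spleen and to 5673 to 8700 CPM in the injured tissues, and Foxp3 itself passed the test as higher in all 4, with log2 fold changes of 0.78 in heart, 0.94 in skin, 0.79 in muscle and 0.87 in bone. Summed B cell markers ran from 42.8 to 105 CPM in spleen, from 47.2 to 63.0 in bone and from 19.7 to 54.8 in heart, and were lower in muscle (6.23 to 12.1) and skin (10.6 to 12.8). Of the 8 B cell markers, 8 passed as lower than in spleen in muscle, 7 in skin, 2 in bone and 2 in heart. B cells also express immunoproteasome genes, and the part of these markers in the results was not tested. Skeletal muscle genes summed to 91.5 CPM in muscle 2 and to at most 7.74 CPM in every other library. Fibroblast genes summed to at most 11.8 CPM in spleen and 8.85 in heart, to 14.99, 42.0 and 48.3 CPM in bone 1, b and c, to 44.4, 1.95 and 5.53 in muscle 1 to 3 and to 13.4, 9.76 and 105 in skin 1 to 3. Macrophage genes summed to 65.8 CPM in heart 1 and to at most 33.4 CPM in every other library. Of 7 dendritic cell markers 3 passed as higher in skin, 2 in muscle, 2 in heart and 1 in bone, and of 4 erythroid markers tested 4 passed as lower in muscle and 3 in each other tissue. The part of these markers was not tested. In bulk libraries, fewer cells of a type and less RNA per cell cannot be told apart.

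Promoter sequences are shown for 4 genes: the immunosubunit gene that fell, 2 constitutive catalytic genes whose windows hold an antioxidant response element, and a cap gene that rose in 3 tissues. The 2 catalytic genes, Psmb5 and Psmb6, did not pass in any tissue. Each is the exon-free part of the 250 bases before the RefSeq gene start (GRCm38.p6), 5′ to 3′ in the direction of the gene. Capitals mark the antioxidant response element core TGACNNNGC. The Psmb10 sequence lies at chr8:105938445-105938642 on the minus strand, the Psmb5 sequence at chr14:54618023-54618245 on the minus strand, the Psmb6 sequence at chr11:70525107-70525356 on the plus strand and the Psmd8 sequence at chr7:29180702-29180923 on the minus strand.
Psmb10: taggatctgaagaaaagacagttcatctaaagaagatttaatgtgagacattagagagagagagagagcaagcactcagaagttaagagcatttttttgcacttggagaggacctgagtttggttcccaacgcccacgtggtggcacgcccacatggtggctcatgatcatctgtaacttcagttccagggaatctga
Psmb5: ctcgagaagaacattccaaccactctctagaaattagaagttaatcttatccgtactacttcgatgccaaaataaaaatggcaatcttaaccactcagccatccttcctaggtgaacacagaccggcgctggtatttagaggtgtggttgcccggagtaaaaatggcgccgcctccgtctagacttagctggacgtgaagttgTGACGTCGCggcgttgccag
Psmb6: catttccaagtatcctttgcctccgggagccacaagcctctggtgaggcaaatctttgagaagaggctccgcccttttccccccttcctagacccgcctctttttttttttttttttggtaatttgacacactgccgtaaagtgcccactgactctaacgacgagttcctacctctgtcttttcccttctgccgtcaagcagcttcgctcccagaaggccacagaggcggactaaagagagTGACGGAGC
Psmd8: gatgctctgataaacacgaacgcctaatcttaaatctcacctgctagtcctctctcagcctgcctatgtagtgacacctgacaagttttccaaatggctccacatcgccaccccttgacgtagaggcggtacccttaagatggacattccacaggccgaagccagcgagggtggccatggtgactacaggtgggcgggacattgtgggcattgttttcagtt
The element began 47 bases before the start of Psmb5 and 9 bases before that of Psmb6. Of the 47 genes, 39 had a RefSeq window, and the core was searched on both strands of the 250 bases before the start. It stood in 4 of the 39 (10.3%, Psmb5, Psmc6, Psmd12 and Psmd9), against 10.2% of all 32851 windows, so its share among proteasome genes was near that of all windows. Here and below, members are counted per gene, some with more than 1 window, and the background per window. The interferon-stimulated response element core, a pair of GAAA blocks with NN between them, stood in 3 of the 39 (7.69%, Psmb3, Psmd4 and Psmd9) and in 2.98% of all windows. The CCAAT box stood in 15 (38.5%) and in 33.8% of all windows, and the NF-kB consensus in 1 (2.56%, Psmd12) and in 3.9%. A match describes these letters in these windows and no binding was measured.

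In spleen Tregs the genes differed widely in level per length of transcript. Among them and the 3 partners with another biotype, the highest mean levels were those of the PA28 genes Psme2b, at 88.5 CPM per kb of exon, and Psme1, at 88.3. Psmb8 followed at rank 5 with 52.7 CPM per kb and Psmb10 at rank 7 with 42.1, while Psmb9 stood at 14.9. The constitutive catalytic partners were lower: Psmb6 stood at 18.3, Psmb5 at 14.6 and Psmb7 at 10.8 CPM per kb. Per kb, Psmb8 and Psmb10 thus stood above the genes they replace, and Psmb9 did not. The order for Psmb9 rests on the exon lengths used, 3660 bases against 1872 for Psmb6. Before division by length, Psmb9 stood at 54.5 CPM and Psmb6 at 34.2. Psmb11, the subunit of the thymic cortex, had no count in any of the 18 libraries. Psma8, the alpha subunit of the male germline, had at most 4 counts in a library and did not enter the tests. Psme2b is 99.4% identical to Psme2 over 794 bases, so reads may be split between the 2 genes and the level of each is uncertain.

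The 31 constitutive subunits of core and cap moved little in bone and were shifted upward in the other tissues (30 of them were tested). Compared with spleen, 11 of the 30 rose in muscle, 4 in skin and 5 in heart, none rose in bone and none fell in any tissue. In bone, muscle, skin and heart the median log2 fold change of the 30 was -0.02, 0.37, 0.22 and 0.32, and 12, 30, 27 and 30 of them lay above 0. Over all tested genes the median was 0.01, -0.01, -0.07 and -0.03, and 51.1%, 49.1%, 46.6% and 48% lay above 0. In the same order 8.48%, 14.2%, 15% and 11.8% of all tested genes were higher and 6.32%, 11.3%, 12.8% and 8.46% lower, or 14.8%, 25.5%, 27.8% and 20.3% in either direction. The count in muscle was above that share and those in skin and heart were near it. With upper-quartile scaling the medians of the 30 were -0.04, 0.31, 0.12 and 0.23, and without the naming style in the model -0.19, 0.25, 0.37 and 0.31. The muscle count rested on individual libraries: 2 members in place of 11 passed as higher without muscle 1, 5 without spleen 4, 6 without spleen 5 and 7 without muscle 2. Muscle 1 was also the muscle library with the most fibroblast RNA (44.4 CPM against 1.95 and 5.53), whose part was not tested. In skin 3 members in place of 7 passed in either direction without spleen 1 and 2, and 11 without skin 1. Spleen 1 and 2 had the largest share of ribosomal RNA (3.16% and 2.30% of counts). They are also of the Endo style, like all skin libraries, and leaving them out keeps spleen 3 as the only Endo spleen library. Over all genes 2548 then passed in skin in place of 4342. The part of either trait in the lost calls, here and below, was not tested. In heart 11 members in place of 6 passed in either direction without heart 1 and 3 without heart 2.

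Summed over the 31 genes, constitutive subunits took 1617 to 2180 CPM in the spleen libraries (1919 ± 206, SD, n = 6). They took 1633 to 1828 CPM in bone, 2312 to 2580 in skin, 2049 to 2579 in muscle and 2077 to 2676 in heart. Bone thus lay within the range of spleen, all skin libraries lay above it, and muscle and heart overlapped its upper end. Muscle 1 had the highest muscle sum. The 3 immunosubunits summed to 231 to 397 CPM in spleen and 200 to 209 in bone, and to 182 to 294 in skin, 204 to 290 in muscle and 153 to 286 in heart. Bone lay below every spleen library and the other tissues overlapped with spleen.

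**Figure D1:**
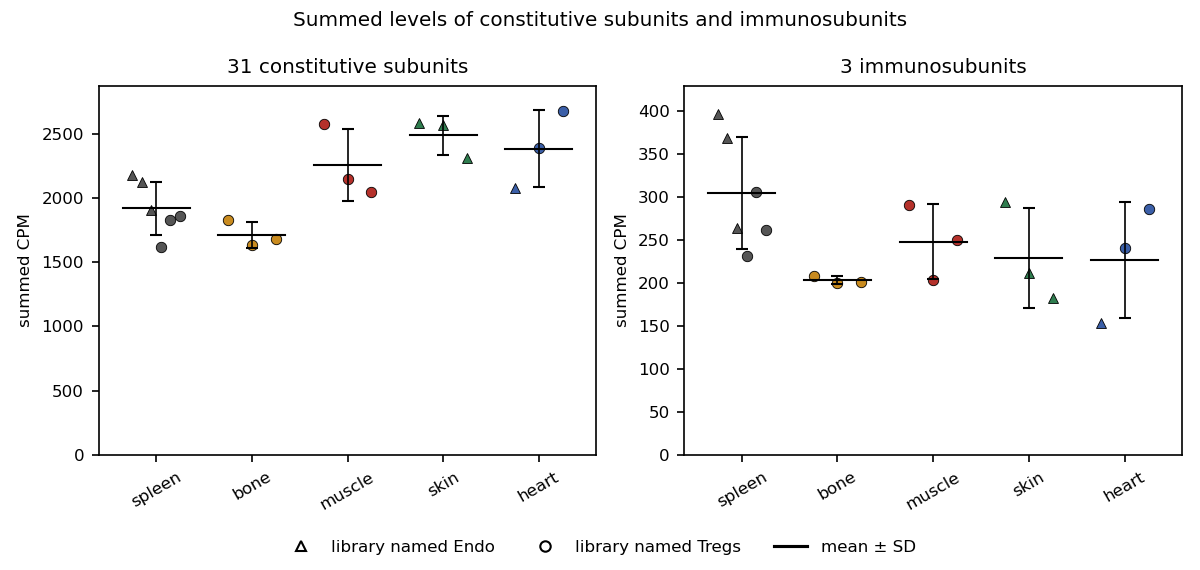
Summed CPM of the 31 constitutive core and cap subunits (left) and of the 3 immunosubunits (right) in each library, by tissue; triangles are libraries named Endo, circles libraries named Tregs, and bars show the mean ± SD. Skin sums of constitutive subunits, 2312 to 2580 CPM, lie above every spleen library, and bone sums of immunosubunits, 200 to 209 CPM, lie below every spleen library.

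Among the alpha-ring genes, Psma5 and Psma7 rose in muscle and Psma1 rose in heart, out of 7 tested. Psma1 stood at 54.7 to 72.6 CPM in spleen (median 65.4) and at 78.9, 120 and 133 CPM in heart 1, 2 and 3. The heart libraries lay above every spleen library, with a log2 fold change of 0.71 (SE 0.17, edgeR quasi-likelihood test, adjusted p = 0.0081). In muscle and skin Psma1 had values of 0.44 and 0.43 that did not pass (adjusted p = 0.0537 and 0.0584). It passed there in 4 and 8 of 21 alternatives. The skin libraries, at 84.5 to 99.6 CPM, also lay above every spleen library, and the value in bone was -0.02. Psma5 had a fitted log2 fold change of 1.14 in muscle (SE 0.30, adjusted p = 0.0062), although its muscle libraries at 35.6, 19.2 and 15.6 CPM overlapped with spleen at 9.97 to 29.8 CPM. Spleen 1 to 3, of the other naming style, were the high ones among the spleen libraries, and a near-identical gene (Gm8394, 98.6% over 952 bases) makes its reads uncertain. The Psma5 call was lost in 2 of 21 alternatives, without muscle 1 and without the naming style, and turned sign in 1. Psma7 had the value 0.46 in muscle (adjusted p = 0.0412), was lost in 9 of 21 alternatives and turned sign in 1, with an adjusted p of up to 0.923. The median over the 7 alpha genes was -0.07, 0.32, 0.19 and 0.41 in bone, muscle, skin and heart. Of the 4 structural beta genes, Psmb2 rose in muscle by 0.54 (adjusted p = 0.0137), and the 4 had medians of -0.16, 0.28, 0.12 and 0.26.

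**Figure D2:**
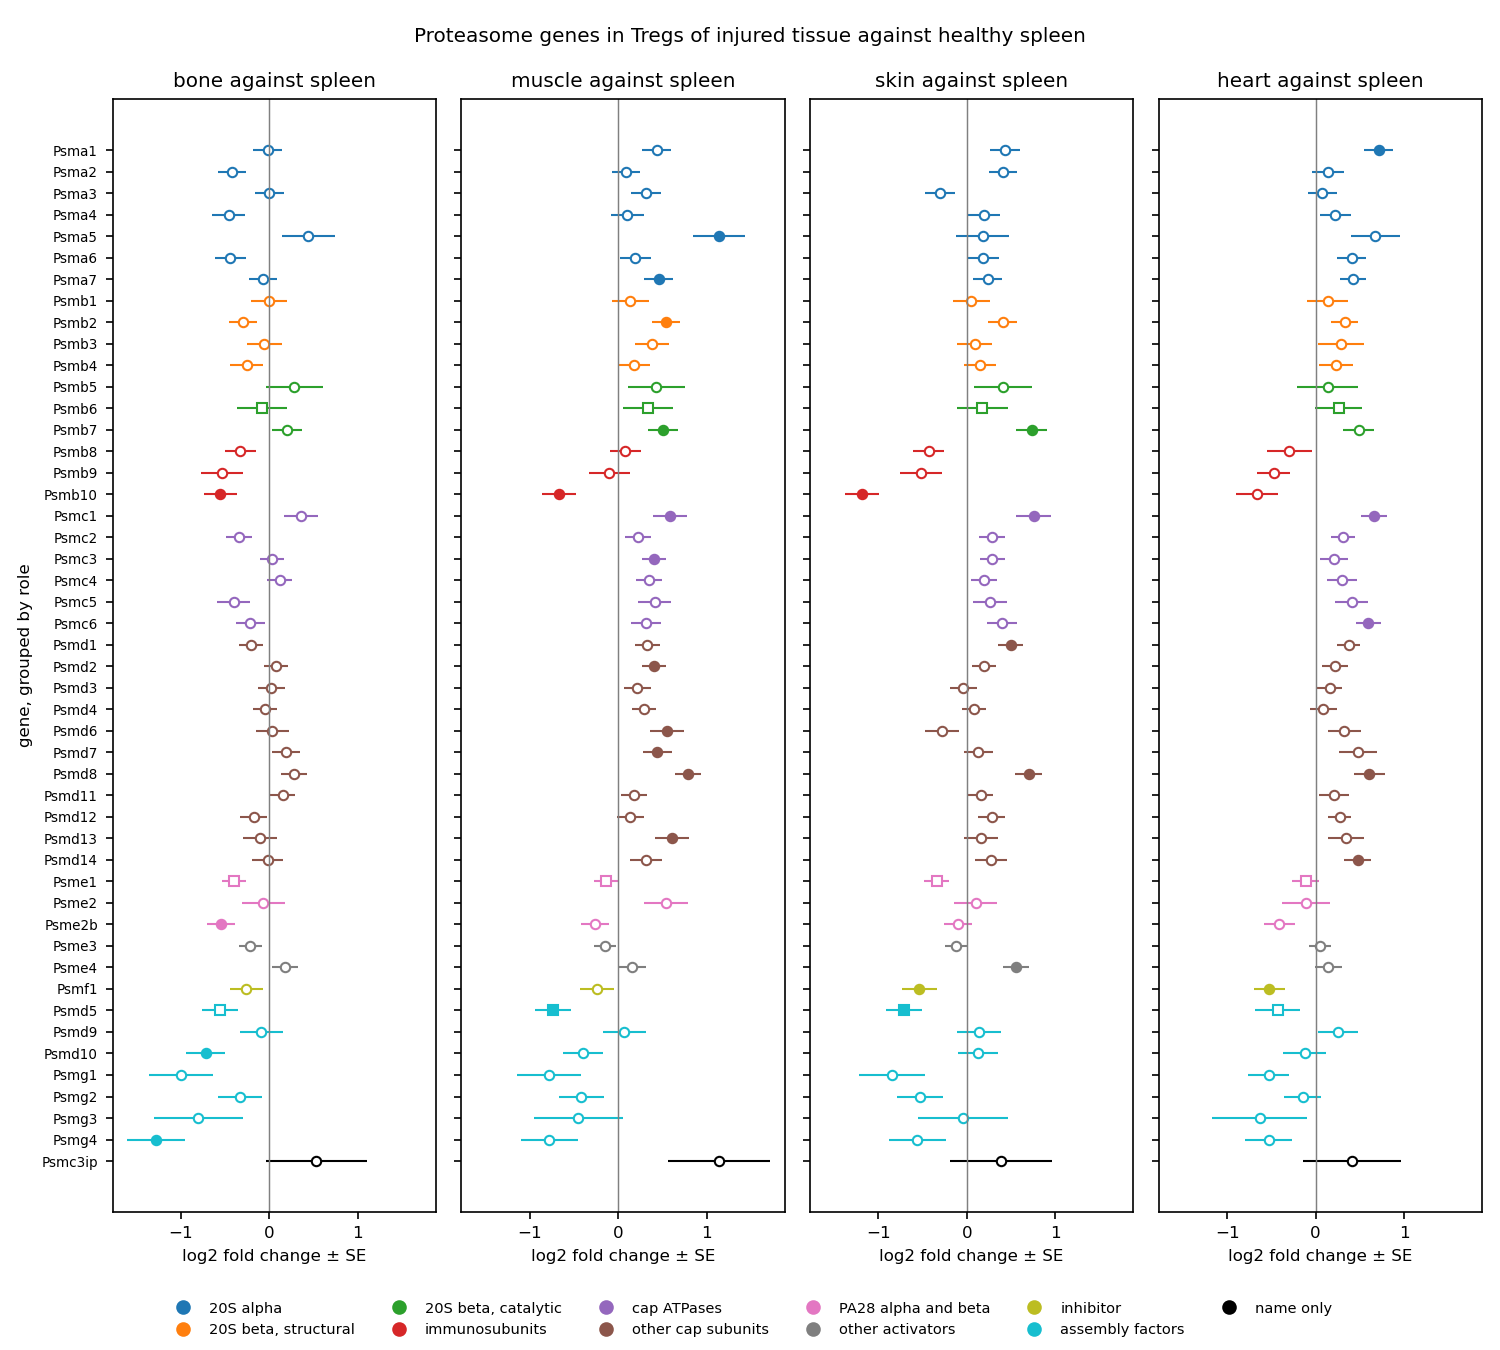
Log2 fold change ± SE of each tested gene against healthy spleen in Tregs of injured bone, muscle, skin and heart, coloured by role; filled symbols passed at an adjusted p of 0.05, open symbols did not, and squares are the 3 genes with another biotype. Constitutive core and cap genes sit mostly to the right of 0 outside bone, with medians of 0.37, 0.22 and 0.32 in muscle, skin and heart, while Psmb10 sits to the left in every tissue.

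At the trypsin-like site of the core the 2 alternative subunits moved in opposite directions. Psmb10, the inducible subunit, fell in bone, muscle and skin, and Psmb7, the constitutive subunit, rose in muscle and skin. Psmb10 stood at 57.6 to 92.9 CPM in spleen (median 70.2). It stood at 42.4, 48.6 and 46.4 CPM in bone 1, b and c, at 48.0, 34.3 and 42.9 in muscle 1 to 3, at 42.9, 33.3 and 26.6 in skin 1 to 3 and at 30.9, 43.0 and 63.5 in heart 1 to 3. Every bone, muscle and skin library lay below every spleen library, and heart 3 alone among the injured-tissue libraries lay within the spleen range. The log2 fold change of Psmb10 was -0.56 in bone (SE 0.19, adjusted p = 0.0484), -0.67 in muscle (SE 0.19, adjusted p = 0.0113) and -1.18 in skin (SE 0.19, adjusted p = 5.29e-05). In heart it was -0.66 (SE 0.23) and did not pass (adjusted p = 0.0626), although it passed in 7 of 20 alternatives (adjusted p from 0.0061 to 0.407). Without spleen 1 and 2 the skin value was -0.71 and did not pass (adjusted p = 0.0558). The muscle call was lost without spleen 5 or without muscle 2, with an adjusted p of up to 0.0675, and the bone call in 8 alternative settings, with an adjusted p of up to 0.2.

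Psmb7 stood at 29.9 to 45.1 CPM in spleen (median 35.6). It stood at 45.7, 40.4 and 39.7 CPM in bone, at 57.5, 46.3 and 48.9 in muscle, at 68.9, 60.8 and 61.9 in skin and at 47.4, 46.5 and 61.5 in heart. All muscle, skin and heart libraries lay above the highest spleen library. Psmb7 rose by 0.50 on the log2 scale in muscle (SE 0.17, adjusted p = 0.032) and by 0.73 in skin (SE 0.17, adjusted p = 0.00241), and had values of 0.20 in bone (adjusted p = 0.5) and 0.49 in heart (adjusted p = 0.0709). The muscle call was lost in 7 of 21 alternatives, among them those without spleen 4, spleen 5, muscle 1 or muscle 3, with an adjusted p of up to 0.144, and the skin call in none of 21. Psmb7 overlaps Nek6 on the other strand over 405 exonic bases, and whether the counting used strand is unknown here.

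The other 2 immunosubunit genes did not pass in any tissue. Psmb8, the inducible subunit of the chymotrypsin-like site, had log2 fold changes of -0.33, 0.08, -0.43 and -0.30 in bone, muscle, skin and heart, with adjusted p-values from 0.0729 to 0.784. Its level was 178 ± 44.1 CPM in spleen (SD, n = 6) against 153 ± 37.6 in skin (n = 3). Psmb9, the inducible subunit of the caspase-like site, had values of -0.54, -0.10, -0.51 and -0.47, with adjusted p-values from 0.0947 to 0.805. It shares 212 exonic bases with Tap1 on the other strand. In skin Psmb8 passed as lower in 4 of 21 alternatives and Psmb9 in 2 of 21. In bone each of them passed as lower in 1 of 20. Their constitutive partners did not pass either: Psmb5 stood at 0.28, 0.43, 0.41 and 0.14 in bone, muscle, skin and heart, and Psmb6 at -0.08, 0.34, 0.17 and 0.26. Psmb5 has a near-identical gene (Gm3375, 98.9% over 796 bases). Over the 3 immunosubunits the median was -0.47 in heart, -0.51 in skin, -0.10 in muscle and -0.54 in bone.

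The ratio of the inducible to the constitutive subunit of the same position was taken within each library, where the scaling between libraries cancels. For Psmb10 over Psmb7 the log2 ratio of counts ran from 0.56 to 1.31 in spleen. It was -0.11, 0.27 and 0.22 in bone, -0.26, -0.44 and -0.19 in muscle, -0.68, -0.87 and -1.22 in skin and -0.62, -0.11 and 0.05 in heart. Every injured-tissue library lay below every spleen library. The mean ratio was 3.66-fold lower in skin, 2.37-fold in muscle, 2.26-fold in heart and 1.77-fold in bone, each with p = 0.0119 in an exact two-sided permutation test, which is the smallest p that 3 against 6 libraries allow (adjusted p = 0.0286 over the 12 ratio tests). Within libraries of 1 naming style the log2 differences were -0.77, -1.19 and -1.92 in bone, muscle and skin, where 3 against 3 cannot go below an exact p of 0.1, and -1.27 in heart with both styles kept apart (exact p = 0.025).

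For Psmb8 over Psmb5 the ratio passed in skin. The skin libraries stood at 2.59, 2.85 and 2.96 on the log2 scale, below all spleen libraries at 3.46 to 4.86, a mean difference of -1.05 (exact permutation p = 0.0119, adjusted p = 0.0286). Within the Endo libraries it was -0.80 (exact p = 0.1, the smallest possible there). In bone, muscle and heart the differences were -0.44, -0.20 and -0.41, with adjusted p-values of 0.286, 0.679 and 0.397 in the same exact permutation test, and the libraries overlapped with spleen. Whether skin differed from these tissues in the ratio was not tested. For Psmb9 over Psmb6 all skin and heart libraries lay below spleen, by -0.83 and -0.72 on average, but neither passed the adjustment (exact permutation p = 0.0476, adjusted p = 0.0816). The bone and muscle differences of -0.33 and -0.37 had exact permutation p-values of 0.429 and 0.381.

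**Figure D3:**
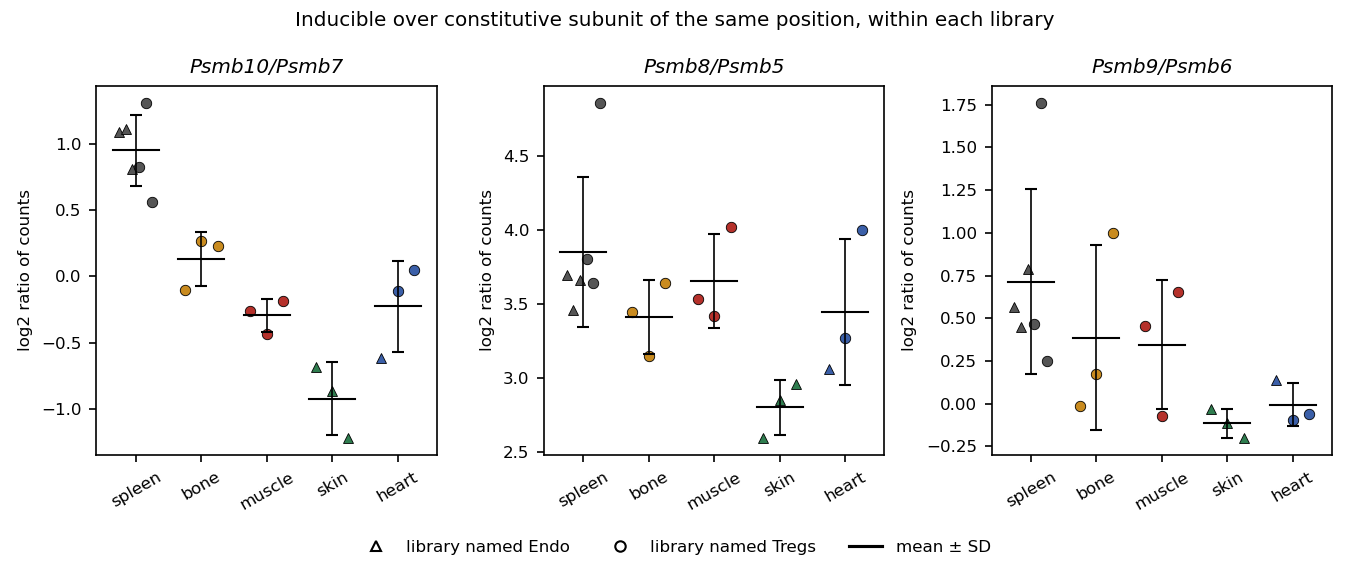
Log2 ratio of the counts of an inducible catalytic subunit to those of the constitutive subunit of the same position in each library; triangles are libraries named Endo, circles libraries named Tregs, and bars show the mean ± SD. For Psmb10 over Psmb7 all 12 injured-tissue libraries lie below the lowest spleen library at 0.56, and for Psmb8 over Psmb5 all 3 skin libraries lie below the lowest spleen library at 3.46.

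In the cap, the ATPase genes and the other subunits had median log2 fold changes of -0.09 and 0.02 in bone, 0.38 and 0.33 in muscle, 0.29 and 0.16 in skin and 0.36 and 0.33 in heart. Of 6 ATPases, which form the ring that unfolds the substrate, 2 rose in muscle (Psmc1, Psmc3), 1 in skin (Psmc1) and 2 in heart (Psmc1, Psmc6). Psmc1 stood at 25.8 to 30.2 CPM in spleen (median 28.9). It stood at 48.7, 33.2 and 34.9 CPM in bone, at 45.8, 49.5 and 38.9 in muscle, at 61.1, 40.3 and 37.5 in skin and at 43.7, 43.0 and 50.7 in heart. Every injured-tissue library lay above every spleen library. The log2 fold change was 0.58 in muscle (SE 0.19, adjusted p = 0.029), 0.75 in skin (SE 0.20, adjusted p = 0.00592) and 0.66 in heart (SE 0.15, adjusted p = 0.00515), and 0.36 in bone, where it did not pass (adjusted p = 0.24). Without spleen 1 and 2 the skin value was 0.75 and did not pass (adjusted p = 0.1). The muscle call was lost in 6 of 21 alternatives. Psmc1 has a near-identical gene (AC110212.1, 95.6% over 1306 bases). Psmc6 rose in heart by 0.60 (SE 0.14, adjusted p = 0.00878), from 55.9 to 79.7 CPM in spleen to 91.2, 126 and 111 CPM.

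Of the 11 cap subunits that are not ATPases, 5 rose in muscle (Psmd2, Psmd6, Psmd7, Psmd8 and Psmd13), 2 in skin (Psmd1 and Psmd8) and 2 in heart (Psmd8 and Psmd14). The shares of all genes called higher were 14.2%, 15% and 11.8%, and the counts in skin and heart were near them. Psmd8, a lid subunit, stood at 76.6 to 119 CPM in spleen (median 94.0). It stood at 115, 109 and 92.7 CPM in bone, at 146, 150 and 148 in muscle, at 207, 173 and 148 in skin and at 118, 164 and 149 in heart. All muscle and skin libraries lay above spleen, and heart 1 lay just below the highest spleen library. Psmd8 rose by 0.79 on the log2 scale in muscle (SE 0.15, adjusted p = 0.000327), by 0.70 in skin (SE 0.15, adjusted p = 0.000965) and by 0.61 in heart (SE 0.17, adjusted p = 0.0245), and had a value of 0.28 in bone (adjusted p = 0.235). Its heart call was lost in 6 of 20 alternatives. Psmd14, the deubiquitinase that removes the ubiquitin chain at the cap, rose in heart by 0.47 (adjusted p = 0.0393), and not without spleen 1 and 2 (adjusted p = 0.0646). Psmd1, a large scaffold subunit of the cap base, rose in skin by 0.50 (adjusted p = 0.00998), and not without spleen 1 and 2 (adjusted p = 0.16). It stood at 98.1 to 101 CPM in skin against 65.9 to 90.8 in spleen. Muscle at 94.0 to 112 CPM and heart at 84.2 to 116 reached similar levels without passing, and bone stood at 63.6 to 84.7. Psmd13, another lid subunit, rose in muscle by 0.61 (SE 0.19, adjusted p = 0.0213), and it overlaps Sirt3 on the other strand over 342 exonic bases. The Psmd13 call was lost in 6 of 21 alternatives.

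**Figure D4:**
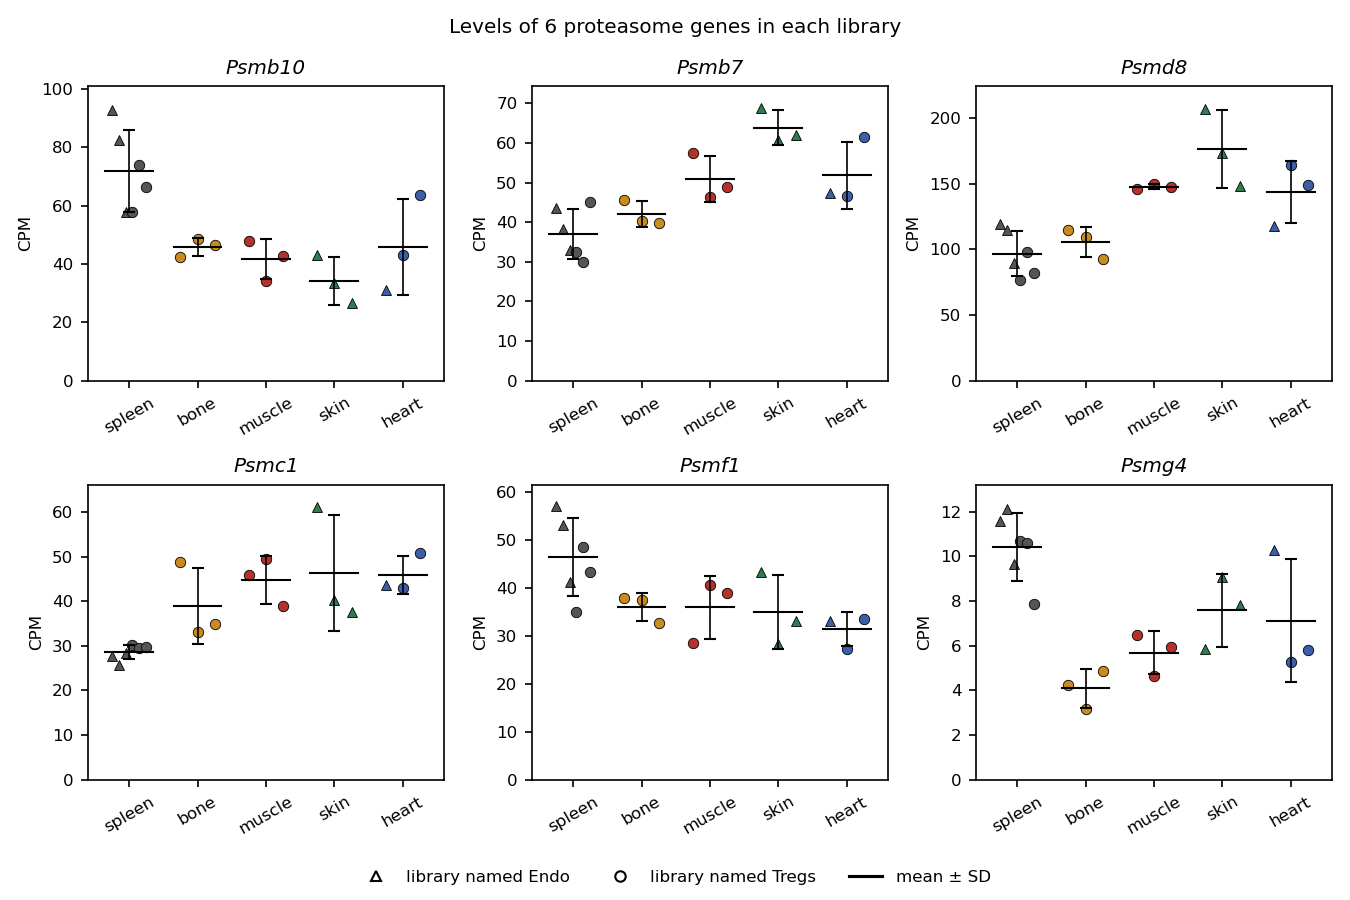
CPM of single proteasome genes in each library by tissue; triangles are libraries named Endo, circles libraries named Tregs, and bars show the mean ± SD. Psmb10 is below spleen in all bone, muscle and skin libraries, and Psmc1 is above the spleen range of 25.8 to 30.2 CPM in every injured-tissue library.

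The activators and the inhibitor changed in few comparisons. Psme1 and Psme2, which together form the interferon-inducible PA28 ring, did not pass in any tissue: Psme1 had log2 fold changes of -0.40, -0.13, -0.34 and -0.11 in bone, muscle, skin and heart, with adjusted p-values of 0.0558 and 0.075 in bone and skin. In bone Psme1 passed in 7 of 19 alternatives (adjusted p from 0.0202 to 0.238). Psme2 had values of -0.07, 0.54, 0.10 and -0.11. Psme2b fell in bone by 0.55 (adjusted p = 0.0195), at 44.4, 54.4 and 51.9 CPM against 70.6 to 76.7 CPM in spleen, with the uncertainty between copies given above. Psme3, the nuclear activator PA28-gamma, had values between -0.21 and 0.05 and did not pass. Psme4, the activator PA200, rose in skin by 0.55 (SE 0.15, adjusted p = 0.00679), and not without spleen 1 and 2 (adjusted p = 0.272). Its skin libraries stood at 133, 155 and 161 CPM and overlapped with spleen at 88.4 to 144 CPM. Psmf1, the inhibitor PI31, fell in skin by 0.54 (SE 0.20, adjusted p = 0.0449) and in heart by 0.52 (SE 0.17, adjusted p = 0.0465), and had values of -0.26 in bone and -0.23 in muscle that did not pass. It stood at 35.02 to 57.0 CPM in spleen (median 45.9), at 43.4, 28.4 and 33.0 CPM in skin and at 33.2, 27.3 and 33.6 CPM in heart. All heart libraries lay below spleen and skin 1 overlapped with it. Without spleen 1 and 2 neither value passed (adjusted p = 0.716 in skin and 0.129 in heart). The skin call of Psmf1 was lost in 14 of 21 alternatives and the heart call in 9 of 20.

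The assembly factors had values mostly below 0. With Psmd5 included, the 7 genes had median log2 fold changes of -0.43 in heart, -0.53 in skin, -0.45 in muscle and -0.72 in bone, and most single values did not pass. Psmg4, a chaperone of the alpha ring, fell in bone by 1.28 (SE 0.32, adjusted p = 0.0078) and was called in every alternative tried. It stood at 7.87 to 12.1 CPM in spleen (median 10.6) and at 4.24, 3.15 and 4.88 CPM in bone, below every spleen library. In muscle, skin and heart its values were -0.78, -0.56 and -0.53, with adjusted p-values of 0.0804, 0.219 and 0.181. Psmd10, the ATPase chaperone also known as gankyrin, fell in bone by 0.72 (SE 0.22, adjusted p = 0.0315), at 13.2, 12.9 and 9.60 CPM against 15.2 to 22.7 CPM in spleen. The Psmd10 call was lost in 7 of 20 alternatives. Psmd5, a further ATPase chaperone, fell in muscle by 0.74 (adjusted p = 0.00832) and in skin by 0.71 (adjusted p = 0.0103, and 0.212 without spleen 1 and 2). Psmg1, the partner of Psmg2 in alpha-ring assembly, had the value -1.0 in bone and did not pass (adjusted p = 0.0667). In bone 4 of 45 members fell in all (Psmb10, Psmd10, Psme2b and Psmg4), near the 6.32% of all genes that were lower, and the count was 1 without spleen 6 and 2 without spleen 5 or any 1 bone library.

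Between injured tissues, every member that passed had bone as the lower side. In bone against muscle 7 members were lower (Psma6, Psmb2, Psmc2, Psmc5, Psmd1, Psmd8 and Psmd13), where 2.29% of all genes were lower. The median of the 30 constitutive subunits was -0.44 and all 30 lay below 0. The largest of these changes were -0.84 for Psmb2 (adjusted p = 0.00315) and -0.82 for the ATPase gene Psmc5 (adjusted p = 0.0132). Psmb2 stood at 68.8, 50.7 and 62.6 CPM in bone and at 124, 98.1 and 98.8 CPM in muscle, with no overlap. In heart against bone 9 members were higher (Psma1, Psma2, Psma4, Psma6, Psmb2, Psmc2, Psmc5, Psmc6 and Psmd1) against 4.02% of all genes, with a median of 0.44 over the constitutive subunits and all 30 above 0. Psma6 had the largest value, 0.92 (adjusted p = 0.00638), and Psmc6 followed with 0.83 (adjusted p = 0.00564) among genes of the cap. In bone against skin 2 members were lower, Psma2 at -0.84 (adjusted p = 0.0224) and Psmd1 at -0.71 (adjusted p = 0.0288), against 4.55% of all genes. The median of the 30 constitutive subunits there was -0.30, and 5 of them lay above 0. Without the naming style in the model it was -0.56, and 0 lay above 0. All bone libraries are of the Tregs style and all skin libraries of the Endo style, so this comparison hangs on the style term. B cell markers moved along with the first of these comparisons: 4 of 8 were higher in bone than in muscle, and their part was not tested. These comparisons share the 3 bone libraries, and their counts rested on them: without bone b the counts were 1, 2 and 0 for muscle, heart and skin, and without bone c 1, 4 and 0. Without muscle 1 or 2 the bone-muscle count was 2 or 3, and without heart 2 or 3 the heart-bone count was 3. No member passed between muscle and skin, heart and muscle or heart and skin in edgeR, DESeq2 or limma-voom, where 1.31%, 0.452% and 2.38% of all genes passed in edgeR, and 3, 0 and 1 members had an unadjusted p under 0.05. Psmb10 did not pass between any pair of injured tissues: it stood 0.63 higher in bone than in skin (SE 0.27, adjusted p = 0.156) and 0.52 higher in muscle than in skin (SE 0.27, adjusted p = 0.454).

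Partners of the proteasome passed in both directions. These lists were chosen with earlier results of these data known and are described by their counts. Of 21 measured partners, which include ubiquitin receptors, shuttles and ligases, deubiquitinases and the transcription factor Nfe2l1, 0 rose and 1 fell in bone, 1 and 3 in muscle, 4 and 5 in skin and 1 and 5 in heart. Of all genes 8.48% were higher and 6.32% lower in bone, 14.2% and 11.3% in muscle, 15% and 12.8% in skin and 11.8% and 8.46% in heart, so most of these counts were near the background, and the same shares apply to the lists below. Ngly1, the glycanase that processes the Nfe2l1 protein, fell in all 4 tissues, by 0.86, 0.60, 0.64 and 0.43 on the log2 scale. Ube3a, a ubiquitin ligase, fell in muscle, skin and heart by 0.63, 0.62 and 0.57. Nfe2l1 fell in skin by 0.49 and in heart by 0.53, and Ddi2, the protease that activates its product, fell in the same 2 tissues by 0.67 and 0.42. Rad23b, which shuttles ubiquitylated proteins to the cap, rose in muscle by 0.51, in skin by 0.56 and in heart by 0.50. Pomp, the maturation factor of the core, did not pass, with values of 0.09, 0.30, 0.27 and 0.27. Of the 5 ubiquitin genes 0 passed in bone, 2 rose in muscle, 2 in skin and 1 in heart. Ubb, a polyubiquitin gene, rose by 0.53, 0.98 and 0.83 in muscle, skin and heart.

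Other genes induced by interferons were set beside the immunosubunits. Of 16 interferon response genes, 0 rose and 4 fell in bone, 2 and 3 in muscle, 0 and 9 in skin and 1 and 4 in heart. Usp18, which limits interferon receptor signalling, fell in all 4 tissues, by 1.15, 1.40, 2.86 and 1.76 in bone, muscle, skin and heart. Gbp2, a guanylate-binding protein, fell by 0.92, 0.72, 0.66 and 0.57. Irf1, the factor that acts on the immunosubunit genes, did not pass in any tissue. Mx1 went the other way in muscle, where it rose by 1.67. Of 12 genes of MHC class I presentation, none passed in bone, 4 rose in muscle, 3 rose and 3 fell in skin and 2 rose in heart. Tap1, the peptide transporter whose gene lies beside Psmb9, rose in muscle by 0.48 and fell in skin by 0.45. Nlrc5, the transactivator of MHC class I genes, fell in skin by 1.15, and Pdia3, a chaperone of peptide loading, rose by 0.43, 0.67 and 0.57 in muscle, skin and heart.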

How the data were processed

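Bulk RNA-seq of sorted mouse Tregs was deposited as 2 tables of raw counts per gene, 1 with spleen, bone, muscle and skin and 1 with spleen and heart; both hold the same 6 spleen libraries, 18 libraries in all. Per the labels' protocols, libraries were made with the Ovation Solo kit from 1 ng of total RNA, and per the submitters' processing notes the authors used STAR, featureCounts and limma with GRCm38; their versions and the strand setting were not stated. The deposited counts were tested with edgeR 4.0.16 in R 4.3.3 (quasi-likelihood, filterByExpr, TMM scaling, group plus naming style), over all genes, with Benjamini-Hochberg adjustment and a threshold of 0.05. The first table was fitted for bone, muscle and skin, the second for heart against spleen, and all 18 libraries for heart against the other tissues. CPM are TMM-scaled over all 18 libraries, and levels per kb use GENCODE M21 exon lengths. Within-library ratios (0.5 counts added) were tested by exact permutation over libraries. The counts per library limit precision most for genes of low level. The code was tested on simulated data.

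The members and the gene lists were chosen with earlier results of these data known. Named genes were Psmb5 to Psmb10, Psme1 to Psme4, Psmf1 and, for each tissue against spleen, the 3 highest and 3 lowest among those that passed; between tissues the 3 with the smallest adjusted p; from each list up to 2 at either end by mean, with Pomp, Nfe2l1, Tap1, Irf1 and 1 gene that, like 1 of the promoter motifs searched, is not reported here. Psma6, Psma7, Psmb2, Psmc3, Psmc6, Psmd1, Psmd5, Psmd14, Psme2b, Psmg1, Ddi2, Mx1, Nlrc5 and others outside this rule were named after their values were seen. Promoter windows are from RefSeq (GRCm38.p6) and no protein sequences were used here. Alternatives covered scaling, filters, DESeq2 1.42.0, limma-voom (limma 3.58.1), the naming style, a replicate block, a single fit of all libraries and leaving out libraries.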

Additional observations from a re-analysis of the deposited data

Results flagged for a closer look

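Of 51 sets of spleen values checked for a library far from the other 5, 2 held one; chance alone flags about 5% of such sets. The log2 ratio Psmb9/Psmb6 was 1.76 in spleen 5 and 0.25 to 0.79 in the others. The log2 ratio Psmb8/Psmb5 was 4.86 in spleen 6 and 3.46 to 3.801 in the others.

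Differences between injured tissues passed the test for 18 combinations of gene and tissue pair. In bone against muscle the log2 differences were -0.64 for Psma6, -0.84 for Psmb2, -0.57 for Psmc2, -0.82 for Psmc5, -0.54 for Psmd1, -0.71 for Psmd13 and -0.51 for Psmd8. In bone against skin they were -0.84 for Psma2 and -0.71 for Psmd1. In heart against bone they were 0.84 for Psma1, 0.66 for Psma2, 0.74 for Psma4, 0.92 for Psma6, 0.65 for Psmb2, 0.66 for Psmc2, 0.79 for Psmc5, 0.83 for Psmc6 and 0.60 for Psmd1. All 18 had bone as the lower side, and all share its 3 libraries.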

How the results depend on the processing

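Of 49 calls on single genes followed through 20 to 22 alternatives each, 9 were kept in all of them: Psmg4 in bone, Psmd8 in muscle, Psmb7 and Psmd8 in skin, Psmc1, Psma1 and Psmc6 in heart, Psmb2 in bone against muscle and Psmc6 in heart against bone. The other 40 were lost in some, most often without bone b (17) or bone c (15). The causes of the changes below were not tested. Leaving out a library gave fewer calls in some comparisons and more in others. Upper-quartile scaling moved the median of all genes to -0.166 in skin and -0.12 in heart against spleen and to 0.126 in bone against skin.

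With group alone in the model, 11 members were called in bone, all 11 lower; 7 higher and 2 lower in muscle; 12 in skin, 11 higher and 1 lower; 3 in bone against muscle and 19 in bone against skin. Over all genes that model called 2702 in bone in place of 2312, 4514 in muscle in place of 3984, 5074 in skin in place of 4342, 432 in bone against muscle in place of 759 and 2814 in bone against skin in place of 1267. With upper-quartile scaling the counts were 6 in muscle (5 higher), 3 higher and 2 lower in heart and 1 in bone against skin. Over all genes the counts were 4026, 3149 and 1232 in these comparisons, in place of 3984, 3043 and 1267. In 1 fit of all 18 libraries the members called were 6 in muscle (5 higher), 9 higher and 1 lower in skin and 11 in heart (9 higher, 2 lower). There were 4 in bone against muscle and 6 in bone against skin. That fit called 3867, 4310, 3674, 493 and 1300 of all genes in the same order, in place of 3984, 4342, 3043, 759 and 1267. limma-voom called 6 higher and 2 lower in muscle, 1 lower in skin, 0 lower in heart, 3 in bone against muscle and 1 in bone against skin. In the same order it called 3359, 3296, 2787, 519 and 847 of all genes in either direction. Without a filter on low counts, 8 were higher and 1 lower in skin, where 4341 of all genes were called. DESeq2 called 4 in bone against skin and 2 lower in heart, and protein-coding genes alone gave 2 lower in heart. Over all genes DESeq2 called 1781 in bone against skin and 3790 in heart, and the fit of protein-coding genes 2602 in heart. Without spleen 1 and 2, 3 were called in skin (3 higher, 0 lower) and 0 were lower in heart. Without these 2 libraries 2548 of all genes were called in skin and 2719 in heart, in place of 4342 and 3043. The log2 ratio Psmb10/Psmb7 was then -0.75, -1.17, -1.80 and -1.10 in bone, muscle, skin and heart and Psmb8/Psmb5 in skin -1.19, each with an adjusted p of 0.0686 in the exact permutation test. All libraries of these tissues still lay below the spleen libraries kept, so each unadjusted p was the smallest possible there. Against spleen libraries of the same style these ratios were -0.77, -1.19, -1.92, -1.27 and -0.80, and none passed. None could pass over the 12 tests: 3 against 3 libraries allow no exact permutation p below 0.1, and the heart test none below 0.025, which it reached.

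Replicate numbers did not pair the samples: same-numbered libraries had correlations of -0.16 to 0.20 in their deviations. With the replicate number as a block in place of the naming style, 5 members were higher and 4 lower in muscle and 7 were called in skin. In heart 3 were higher, with 4 in all. Over all genes 4707 were called in muscle, 4278 in skin and 2582 in heart, in place of 3984, 4342 and 3043. In muscle Psma5, Psma7 and Psmc3 changed sign, to -0.048, -0.025 and -0.026. In these fits spleen 4 to 6 share no number with an injured-tissue library and do not bear on the comparison. Muscle, of the Tregs style, was thus set against spleen 1 to 3, of the Endo style, where tissue and style cannot be told apart. Heart 2 and 3 also differ in style from the spleen libraries of their blocks. No block was fitted for bone, where 2 columns are not tied by a label to a numbered sample.

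Leaving out 1 library at a time gave 1 to 4 calls in bone, 4 to 13 in muscle (2 to 12 higher, 0 to 2 lower), 6 to 11 in skin (5 to 8 higher, 1 to 4 lower) and 3 to 11 in heart (3 to 11 higher, 0 to 3 lower). It gave 1 to 10 in bone against muscle, 0 to 5 in bone against skin (5 without spleen 4), 2 to 13 in heart against bone and 0 in the 3 other pairs of tissues. The ratio Psmb10/Psmb7 ranged from -1.99 to -1.72 in skin, -1.32 to -1.17 in muscle, -1.31 to -0.98 in heart and -0.90 to -0.70 in bone. In the same order Psmb8/Psmb5 ranged from -1.13 to -0.85, from -0.38 to 0.0058 (without spleen 6), from -0.69 to -0.21 and from -0.56 to -0.24, and Psmb9/Psmb6 from -0.92 to -0.62, -0.52 to -0.16, -0.81 to -0.51 and -0.63 to -0.12.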
